A study of Mus musculus with 12 samples.

Results

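The transcription factor ATF4 and 9 genes that act with it or downstream of it were followed in mouse embryonic stem cells (ESCs). The members were chosen by gene symbol, with earlier results of these data known: Atf4, Atf3, Ddit3, Trib3, Chac1, Sesn2, Asns, Psat1, Phgdh and Shmt2. They are 10 of the 26061 genes in the deposited table, and all 10 were among the 14185 genes with enough signal to be tested. mRNA-seq was made from Tet2 KO ESCs in which a PiggyBac vector stably restored either wild-type TET2 (WT) or TET2 with the catalytic substitutions H1304Y and D1306A (mutant). All 12 libraries came from cells infected with a lentiviral shRNA against Setdb1, the gene of an H3K9 methyltransferase, and selected with puromycin for 3 days from 48 h after infection. Cells were grown either in 2i medium with LIF and the inhibitors PD0325901 and CHIR99021 (naïve) or in medium with 15% serum and LIF (primed). This gave 4 groups of 3 libraries. The base medium, the serum and the inhibitors changed together between naïve and primed ESCs, so their parts cannot be told apart, and cells without the shRNA against Setdb1 were not analysed here. The number of clones behind each rescue line is not given in the sources used here, and the labels do not say whether replicates were separate cultures, so p-values measure the spread between these libraries.

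ATF4 is a bZIP transcription factor whose protein is made mainly when the translation factor eIF2 is phosphorylated, which happens when amino acids are scarce, when unfolded proteins build up in the endoplasmic reticulum (ER) or when other stresses act. It binds DNA with partner bZIP proteins at composite C/EBP-ATF response elements and turns on genes for amino acid synthesis, amino acid import and tRNA charging, and, under lasting stress, genes that slow growth or promote cell death. Serine synthesis from a glycolytic intermediate, run by PHGDH, PSAT1 and PSPH, is part of this programme, and the serine made feeds glycine and one-carbon units through the folate enzyme SHMT2. Because ATF4 is controlled largely through translation, its mRNA level does not give the level of its protein, which was not measured.

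The depth per library was 8066662 to 21335933 reads assigned to genes. Tet2 reads, which include the construct, were higher with WT than with mutant TET2 by 2.16 ± 0.34 (SE) on the log2 scale in naïve ESCs and by 1.84 ± 0.34 in primed ESCs (limma, adjusted p = 0.0154 and 0.0297). The naïve minus primed difference of these reads was -1.55 ± 0.34 with WT and -1.87 ± 0.34 with mutant TET2 (limma, adjusted p = 0.00207 and 0.000515), so the Tet2 level moved with the medium, and its part in the differences between media was not tested. Setdb1 was still read 114 to 585 times per library, in libraries of different depth. Its naïve minus primed difference was -0.45 ± 0.25 with WT and -0.42 ± 0.25 with mutant TET2 and did not pass (limma, adjusted p = 0.167 and 0.201). The 9 markers of pluripotent ESCs in the table, among them Pou5f1, Sox2 and Nanog, summed to between 57518 and 80958 normalised reads, that is, reads divided by the library's size factor, in every library. Of these 9, 2 were higher and 2 lower in naïve ESCs with WT TET2, and 0 higher and 2 lower with mutant TET2 (limma, adjusted p under 0.05). Utf1 (-2.18 and -2.25 on the log2 scale) and Zfp42 (-0.94 and -1.29) were lower in both lines. Nanog (0.57) and Dppa3 (1.01) were higher with WT TET2 and did not pass with mutant TET2 (0.40 and 0.73, limma, adjusted p = 0.137 and 0.0668). In normalised reads the sums were at most 104 for markers of primitive endoderm, 309 for trophoblast and 93.8 for fibroblasts, with 3 of the 6 fibroblast markers at 0 in all libraries of every group. Trophoblast markers summed to 21.7 to 69.5 in naïve and 108 to 309 in primed libraries. Fibroblast markers summed to 67.2 to 93.8 in naïve and 29.4 to 60.6 in primed libraries. Of the 2 tested, Thy1 was higher in naïve ESCs of both lines (0.85 and 1.40, limma, adjusted p = 0.00474 and 9.3e-05). Lum was lower in naïve ESCs with mutant TET2 (-0.95, limma, adjusted p = 0.0161) and did not pass with WT TET2 (0.32, limma, adjusted p = 0.403). The part of either list in the differences between media was not tested. Epiblast-primed markers, among them Dnmt3b and Otx2, summed to 802 to 2461 in naïve and 7032 to 12585 in primed libraries. Of the 5 tested, 4 were lower in naïve ESCs of both lines and Lef1 was higher (1.47 and 0.86; limma, adjusted p = 0.00143 and 0.0358). As these are bulk samples, fewer cells expressing a gene and less RNA per cell cannot be told apart.

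Promoter sequence was examined because 9 of the 10 members had a higher mean in naïve ESCs of both rescue lines. RefSeq promoter windows (250 bases before to 50 after the start, table build GRCm38.p6) were found for all 10 members, and every window matched mm9 exactly once, so that mm9 positions are given. The core of the C/EBP-ATF element, TGATGNAA, or TTNCATCA on the other strand, occurred in 4 of the 10 members, compared with 4.51% of the 27025 genes with a window. The members were chosen as ATF4 and genes that act with it or downstream of it. The comparison is therefore descriptive, and the part of the element in the differences between media was not tested. The sequences with a match are shown 5′ to 3′ along the gene, in lower case with the match in capitals. For Atf3 (chr1:193007220-193007462, minus strand) and Chac1 (chr2:119176728-119176964, plus strand) the bases outside the annotated gene are given, and for Asns (chr6:7643214-7643243, minus strand) and Trib3 (chr2:152169764-152169793, minus strand) 30 bases around the match.
Atf3: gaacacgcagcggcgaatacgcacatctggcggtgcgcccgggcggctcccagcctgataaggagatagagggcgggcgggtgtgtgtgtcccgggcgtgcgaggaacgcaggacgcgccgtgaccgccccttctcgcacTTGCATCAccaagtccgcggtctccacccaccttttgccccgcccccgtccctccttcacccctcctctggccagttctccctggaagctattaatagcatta
Chac1: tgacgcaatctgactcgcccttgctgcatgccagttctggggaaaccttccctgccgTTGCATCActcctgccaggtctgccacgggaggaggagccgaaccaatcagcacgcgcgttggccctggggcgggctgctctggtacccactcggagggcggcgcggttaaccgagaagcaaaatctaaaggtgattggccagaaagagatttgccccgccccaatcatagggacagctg
Asns: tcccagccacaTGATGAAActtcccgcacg
Trib3: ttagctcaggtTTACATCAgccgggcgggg

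The match began at position -110 from the RefSeq start in Atf3, at -193 in Chac1 and at -23 in Asns, and at position 15 after the start in Trib3. Atf3 and Chac1 held the same letters, TTGCATCA, while Asns held TGATGAAA on the gene's own strand and Trib3 held TTACATCA. The windows of Atf4, Ddit3, Sesn2, Psat1, Phgdh and Shmt2 held no such letters, which says nothing about elements elsewhere in these genes. A match is a description of the sequence, and no binding was measured.

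The first comparison asked how the members differed between naïve and primed ESCs within each rescue line. With WT TET2, 8 of the 10 members passed the test (limma, Benjamini-Hochberg adjusted p under 0.05 over all genes tested), 7 higher and 1 lower in naïve ESCs. Of all genes, 35.9% passed in this comparison, 18.6% higher and 17.3% lower. With mutant TET2, 9 of the 10 members passed, all higher in naïve ESCs, where 35.2% of all genes passed, 18.3% higher and 16.9% lower. The median difference of the members was 1.00 with WT TET2 and 0.93 with mutant TET2 on the log2 scale, against 0.01 and -0.01 for all genes. Naïve and primed libraries did not overlap for 10 of 10 members with WT TET2 and for 9 with mutant TET2, where 50.0% and 43.5% of all genes did not overlap. The rescue lines share no library, but were grown in the same pair of media.

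**Figure D1:**
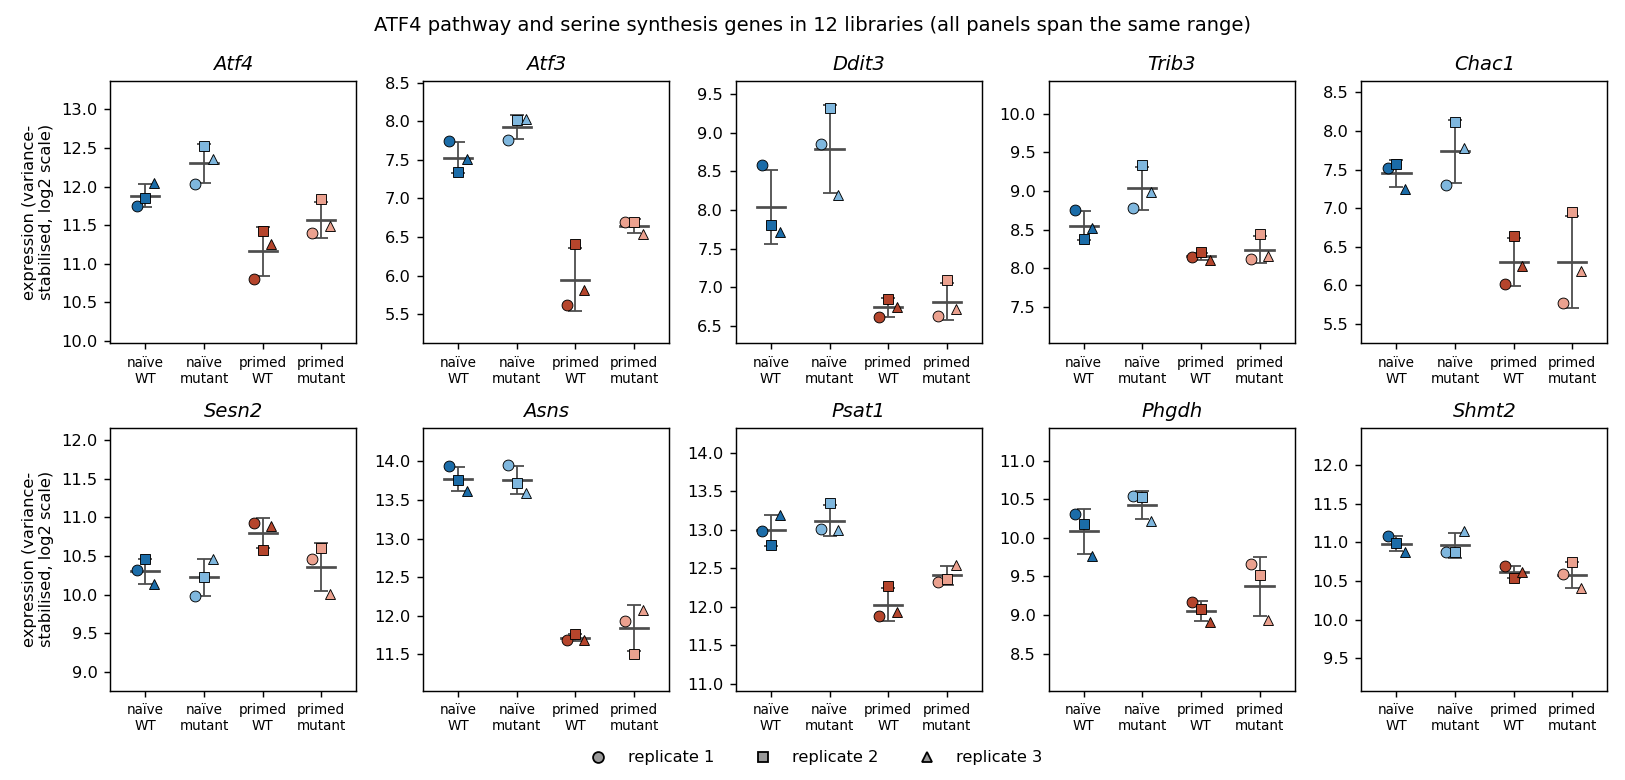
Expression of the 10 members in each library (y axis, variance-stabilised value on the log2 scale; x axis, the 4 groups; all panels span the same range). Symbols give the replicate number, the long line the mean and the bars the SD of 3 libraries. Within each rescue line, all naïve libraries lie above all primed ones for 9 members, most widely for Asns, and Sesn2 is the member with its highest mean in primed ESCs with WT TET2.

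Among the transcription factors, Atf4 itself (chr15:80085614-80087970, plus strand, mm9) was higher in naïve ESCs. With WT TET2 its normalised reads were 3425, 3683 and 4188 in naïve and 1766, 2711 and 2422 in primed libraries. With mutant TET2 they were 4155, 5881 and 5202 in naïve and 2666, 3634 and 2838 in primed libraries. No naïve library overlapped the primed libraries of its own line, although the lowest naïve library with WT TET2 lay below the highest primed library with mutant TET2. The difference was 0.72 ± 0.19 (SE) with WT TET2 and 0.73 ± 0.19 with mutant TET2 on the log2 scale (limma, adjusted p = 0.00667 and 0.00638), and the fold was 1.66 in each line (limma-voom on recovered reads, 95% intervals 1.26 to 2.18 and 1.27 to 2.19). Without primed WT replicate 1, which had the lowest Atf4 value, the difference with WT TET2 was 0.55 and the adjusted p 0.0537.

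Atf3 (chr1:192994175-193007219, minus strand), a stress-induced bZIP repressor and activator that ATF4 turns on, had some of the fewest reads among the members. With WT TET2 it had 187, 135 and 155 normalised reads in naïve and 25.0, 59.1 and 31.8 in primed libraries. With mutant TET2 it had 189, 231 and 234 in naïve and 77.1, 77.5 and 66.8 in primed libraries. All 6 naïve libraries lay above all 6 primed ones. The differences were 1.58 ± 0.21 and 1.29 ± 0.21 on the log2 scale (limma, adjusted p = 2.59e-05 and 0.000195). The variance-stabilised scale compresses low counts, and on reads the folds were 4.35 (95% interval 2.88 to 6.58) and 2.94 (2.05 to 4.20). The lowest library, primed WT replicate 1, rested on 17 reads.

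Ddit3 (chr10:126727830-126733344, plus strand) encodes CHOP, a bZIP protein that promotes cell death when stress lasts. Its normalised reads with WT TET2 were 357, 197 and 184 in naïve and 72.1, 89.2 and 81.1 in primed libraries. With mutant TET2 they were 434, 615 and 267 in naïve and 73.0, 110 and 79.5 in primed libraries. The primed libraries of both lines lay close together, whereas the naïve libraries were spread, with SDs of 0.48 and 0.57 on the log2 scale. The differences were 1.30 ± 0.27 and 1.98 ± 0.27 (limma, adjusted p = 0.00146 and 3.88e-05), or 2.87-fold (1.72 to 4.76) and 4.64-fold (2.83 to 7.61) on reads. Exons of Ddit3 overlap annotated exons on the opposite strand, those of Mars among them, by 68 bases, and the libraries keep no strand. Mars itself differed by 0.31 and 0.35 between media and did not pass the test in either line (limma, adjusted p = 0.1002 and 0.0616).

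Trib3 (chr2:152163158-152169768, minus strand), a pseudokinase that is induced by ATF4 and CHOP and restrains them, differed less. With WT TET2 it had 403, 305 and 339 normalised reads in naïve and 255, 268 and 249 in primed libraries, a difference of 0.40 ± 0.18 that did not pass the test (limma, adjusted p = 0.0894). With mutant TET2 it had 413, 620 and 478 in naïve and 251, 320 and 259 in primed libraries, a difference of 0.80 ± 0.18 that passed (limma, adjusted p = 0.00252). In both lines every naïve library was above every primed one. Whether the lines differed in this respect was tested separately (given with the rescue lines), and they were not shown to.

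The effectors of the stress response went different ways. Chac1 (chr2:119176965-119180117, plus strand), a glutathione-degrading enzyme that ATF4 induces, had 157, 164 and 126 normalised reads in naïve and 39.7, 73.6 and 50.9 in primed libraries with WT TET2. With mutant TET2 it had 131, 251 and 193 in naïve and 30.3, 96.9 and 47.7 in primed libraries. All naïve libraries were above all primed ones, and the primed libraries with mutant TET2 were the most spread of its groups (SD 0.59 on the log2 scale, 22 to 90 reads). The differences were 1.15 ± 0.28 and 1.43 ± 0.28 (limma, adjusted p = 0.00426 and 0.000911), with folds on reads of 2.76 (1.65 to 4.62) and 3.40 (2.03 to 5.71).

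Sesn2 (chr4:132047947-132066416, minus strand), a sestrin that ATF4 and p53 induce and that restrains mTORC1, was the exception among the members. With WT TET2 it had 1244, 1382 and 1097 normalised reads in naïve and 1923, 1493 and 1860 in primed libraries, and naïve libraries were all below primed ones. The difference of -0.49 ± 0.18 passed narrowly (limma, adjusted p = 0.0453). It no longer passed without naïve WT replicate 1 (adjusted p = 0.0814) or 3 (0.137), without primed WT replicate 1 (0.1605) or 3 (0.137), or without naïve mutant replicate 2 (0.0550). With mutant TET2 it had 983, 1170 and 1382 normalised reads in naïve and 1383, 1533 and 1000 in primed libraries, the groups overlapped, and the difference was -0.13 ± 0.18 (limma, adjusted p = 0.601; 95% interval -0.52 to 0.25).

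Among the enzymes, Asns (chr6:7625169-7643254, minus strand), which makes asparagine and is a widely used readout of ATF4, had the smallest p of the members in both lines. With WT TET2 its normalised reads were 15645, 13854 and 12524 in naïve and 3281, 3459 and 3266 in primed libraries. With mutant TET2 they were 15821, 13485 and 12363 in naïve and 3893, 2889 and 4304 in primed libraries. The lowest naïve library of either line thus lay well above the highest primed one, and the naïve levels of both lines covered nearly the same range. The differences were 2.06 ± 0.17 and 1.91 ± 0.17 on the log2 scale (limma, adjusted p = 2.08e-07 and 5.03e-07), or 4.18-fold (3.29 to 5.32) and 3.79-fold (2.98 to 4.82).

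The serine synthesis enzymes were also higher in naïve ESCs. Phgdh (chr3:98117093-98143913, minus strand), which catalyses the first step, had 1244, 1129 and 840 normalised reads in naïve and 546, 514 and 453 in primed libraries with WT TET2, and 1458, 1446 and 1162 in naïve and 781, 704 and 462 in primed libraries with mutant TET2. Its differences were 1.03 ± 0.20 and 1.06 ± 0.20 (limma, adjusted p = 0.000774 and 0.000697), or 2.12-fold (1.56 to 2.87) and 2.13-fold (1.58 to 2.88). All naïve libraries were above all primed ones.

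Psat1 (chr19:15979168-16021827, minus strand), the transaminase of the pathway, had 8077, 7089 and 9356 normalised reads in naïve and 3749, 4913 and 3889 in primed libraries with WT TET2. With mutant TET2 it had 8253, 10407 and 8122 in naïve and 5083, 5243 and 5956 in primed libraries. The 2 media were again apart, with differences of 0.96 ± 0.17 and 0.71 ± 0.17 (limma, adjusted p = 0.000321 and 0.00357), or 1.96-fold (1.54 to 2.48) and 1.64-fold (1.29 to 2.07). Shmt2 (chr10:126954195-126959491, minus strand), the mitochondrial enzyme that converts serine to glycine, differed least of the enzymes, by 0.36 ± 0.14 and 0.38 ± 0.14, with 1858 to 2142 against 1461 to 1635 normalised reads with WT TET2 and 1843 to 2245 against 1333 to 1690 with mutant TET2. Only the difference with mutant TET2 passed, narrowly (limma, adjusted p = 0.0602 and 0.0491), and it was lost when any of the 12 libraries was left out (adjusted p 0.0506 to 0.161), while that with WT TET2 passed without primed mutant replicate 3 (0.0384). Exons of Shmt2 share 14 bases with Ndufa4l2 on the opposite strand.

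**Figure D2:**
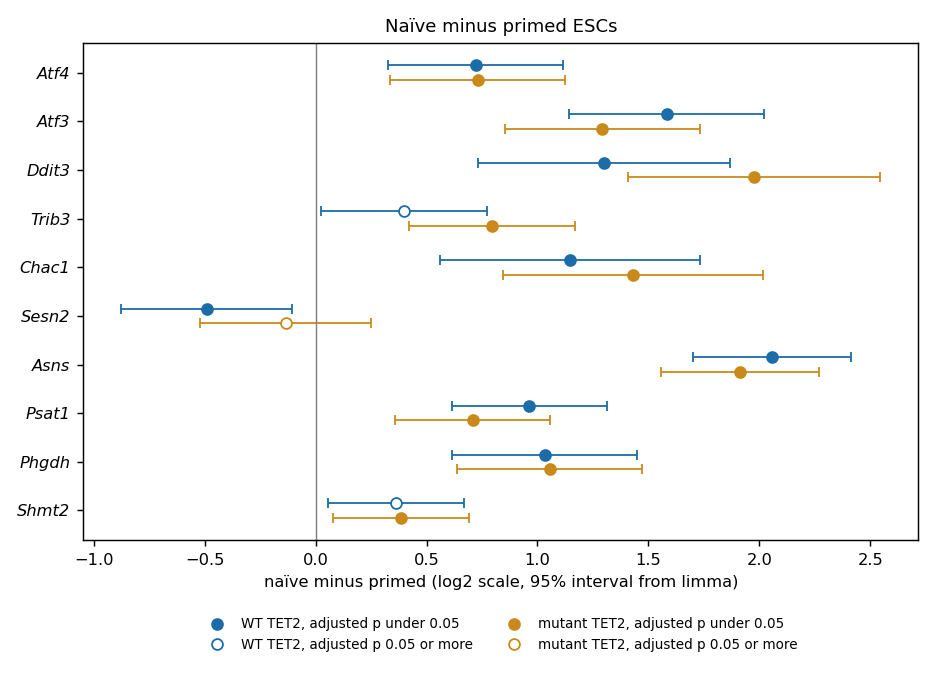
Naïve minus primed difference of each member (x axis, log2 scale) in the WT and mutant TET2 rescue lines; points are differences of means of 3 libraries, bars are 95% intervals from limma, and filled points passed at an adjusted p under 0.05. On this scale Asns has the largest difference with WT TET2 (2.06) and Ddit3 with mutant TET2 (1.98), whereas on reads the fold of Atf3 with WT TET2 (4.35) is above that of Asns (4.18), while Sesn2 lies below 0 in both lines.

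Levels of different genes were compared per length, as reads per kilobase of annotated exons, scaled to the total of gene reads of the library (RPKM). In naïve ESCs with WT TET2 the order was Asns (425 ± 58.0, SD, n = 3), Atf4 (181 ± 14.0), Psat1 (159 ± 19.6), Shmt2 (72.8 ± 6.97), Phgdh (35.8 ± 7.78), Sesn2 (29.6 ± 3.82), Trib3 (13.6 ± 2.18), Ddit3 (11.97 ± 4.99), Chac1 (7.54 ± 1.16) and Atf3 (6.65 ± 1.20). The metabolic enzymes and Atf4 were thus the abundant members and the stress factors the scarce ones, and neighbours such as Atf4 and Psat1, Trib3 and Ddit3, or Chac1 and Atf3 differed by less than the sum of their SDs. In primed ESCs with WT TET2, Atf4 (115 ± 24.9) and Asns (105 ± 3.15) stood side by side, and Sesn2 (43.4 ± 6.12) was above Phgdh (17.4 ± 1.21). These levels depend on the annotated exon length, which may hold parts that ESCs do not use.

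Within a member, the order of the 4 groups was primed WT, primed mutant, naïve WT and naïve mutant, from low to high, for Atf4, Atf3, Ddit3, Trib3, Chac1, Psat1 and Phgdh. Neighbours in this order often overlapped: for Atf4 all neighbouring groups did, and for Chac1 the means of the primed groups were 6.30 in both lines. Atf3 was the member whose 4 groups were all apart from each other. For Asns the primed and naïve groups were apart, but the lines overlapped within each medium.

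The second comparison asked whether the members differed between the rescue lines. The lines differ in the catalytic activity of TET2 and also in the level of Tet2 reads, 4.49-fold higher with WT TET2 in naïve and 3.58-fold higher in primed ESCs (limma-voom), and these cannot be told apart here. At the protein level, the paper reports similar amounts of WT and mutant TET2 by western blot. In naïve ESCs none of the 10 members passed the test, where 0.0987% of all genes (14) passed, and 3 members had an unadjusted p under 0.05 (limma; 4 with limma-voom), as did 13.3% of all genes. Without naïve WT replicate 2 or naïve mutant replicate 2, the 3 members became 0. With the replicate number as a block, since same-numbered naïve libraries deviated together, 36 genes passed and again no member, with the smallest adjusted p of the members for Ddit3 (limma, 0.0984). In primed ESCs none of the 10 passed either, where 0.254% of all genes (36) passed, and 4 members had an unadjusted p under 0.05 (limma; 4 with limma-voom), as did 16.2% of all genes. The 4 became 1 without primed WT replicate 1 or 3, and 2 without primed mutant replicate 2. Libraries did not overlap for 2 members in naïve ESCs and for 2 in primed ESCs, where 16.8% and 22.4% of all genes did not overlap.

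The direction was mostly the same. In naïve ESCs 7 of the 10 members had a lower mean with WT than with mutant TET2, with a median difference of -0.31 on the log2 scale, and in primed ESCs 8 of 10, with a median of -0.11. Over all genes tested the medians were 0.00 and 0.01. Both counts depended on single libraries. Without primed mutant replicate 2, Ddit3, Trib3 and Chac1 were above 0 in primed ESCs, at 0.06, 0.01 and 0.32. Chac1, at -0.001 with all libraries, was also above 0 without primed WT replicate 1 (0.14) or 3 (0.02). Sesn2, Asns and Shmt2, above 0 in naïve ESCs, fell below 0 when certain single naïve libraries were left out, to -0.04, -0.07 and -0.03 at the lowest. In the naïve groups the 3 factors and their inhibitor Trib3 had the most negative values: Ddit3 -0.75 ± 0.27 (limma, adjusted p = 0.292), Trib3 -0.49 ± 0.18 (0.293), Atf4 -0.42 ± 0.19 (0.352) and Atf3 -0.40 ± 0.21 (0.406). For each of these 4, and for Phgdh (-0.34 ± 0.20), the WT library was below the mutant library of the same number in 3 of 3 pairs. Of all genes tested, 21.8% were lower with WT TET2 in 3 of 3 pairs. Without naïve mutant replicate 2 Ddit3 was at -0.49, and without naïve WT replicate 3 Phgdh was at -0.18. Asns and Shmt2 were near 0, at 0.01 (95% interval -0.34 to 0.37) and 0.02 (-0.29 to 0.33), so for these enzymes a difference between the lines of more than about 0.37 lies outside the interval.

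In primed ESCs the most negative values were those of Atf3 (-0.69 ± 0.21; limma, adjusted p = 0.181), Atf4 (-0.41 ± 0.19; 0.293) and Psat1 (-0.38 ± 0.17; 0.279). Atf3 and Psat1 did not overlap between the lines. Ddit3 and Trib3, which had the most negative values in naïve ESCs, were at -0.08 ± 0.27 and -0.09 ± 0.18 in primed ESCs. The difference for Sesn2 was 0.44 ± 0.18 and did not pass (limma, adjusted p = 0.268). Without primed WT replicate 1 Atf4 was at -0.23, and without primed mutant replicate 3 Sesn2 was at 0.26. Ddx3y, a gene of the Y chromosome and no member, was higher with WT TET2, by 1.35 ± 0.24 in naïve and 1.55 ± 0.24 in primed ESCs (limma, adjusted p = 0.0440 and 0.00885), a difference between the lines whose part in the values above was not tested.

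**Figure D3:**
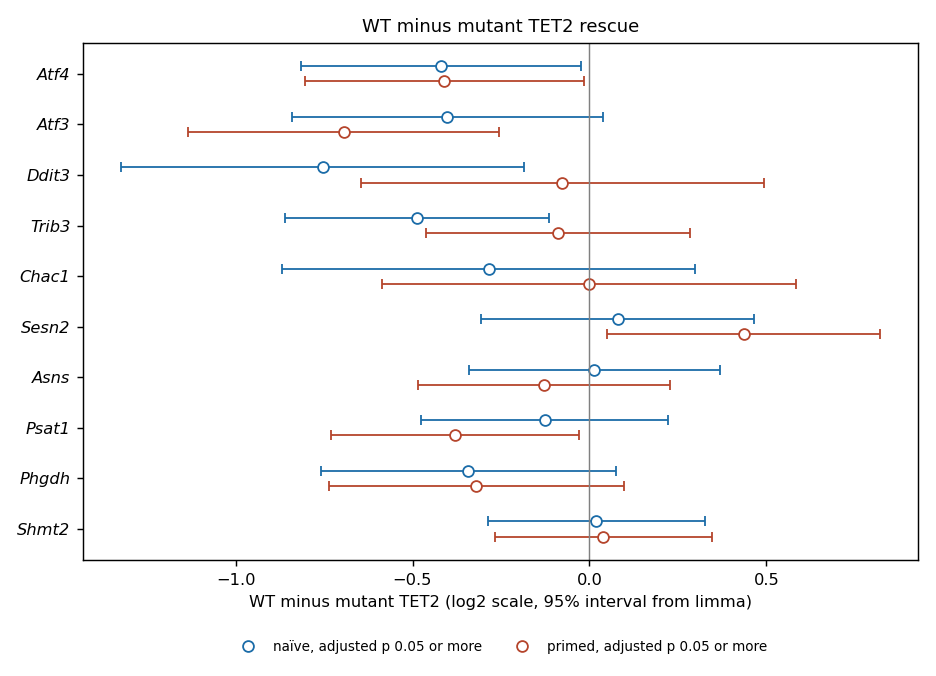
WT minus mutant TET2 difference of each member (x axis, log2 scale) in naïve and primed ESCs; points are differences of means of 3 libraries and bars are 95% intervals from limma. No point passed at an adjusted p under 0.05. Of the 10 differences, 7 in naïve and 8 in primed ESCs lie below 0, that of Chac1 in primed ESCs at -0.001. Without primed mutant replicate 2 those of Ddit3, Trib3 and Chac1 in primed ESCs were above 0.

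The difference between media was then compared between the lines. No member passed this test of the difference of differences, and neither did any other gene (0.0% of 14185; 489 at an unadjusted p under 0.05, limma). No member had an unadjusted p under 0.05, with limma or with limma-voom. Ddit3 had one in the limma fit with the replicate block (0.0354, adjusted 0.684), without naïve WT replicate 1 (0.016, adjusted 0.474) and without naïve mutant replicate 3 (0.0134, adjusted 0.973), at -0.68, -0.95 and -0.97. The largest values were -0.68 ± 0.38 for Ddit3 (95% interval -1.48 to 0.13), -0.40 ± 0.25 for Trib3 (-0.93 to 0.13), -0.36 ± 0.26 for Sesn2 (-0.90 to 0.19) and 0.29 ± 0.29 for Atf3 (-0.33 to 0.91), each with an adjusted p of 0.976 (limma). Without naïve mutant replicate 2 Ddit3 was at -0.41 and Trib3 at -0.25, and Sesn2 was at -0.24 without naïve mutant replicate 3 and at -0.18 without primed mutant replicate 3. Atf3 was at 0.19 without naïve WT replicate 1, at 0.13 and 0.52 without primed WT replicate 1 and 2, and at 0.57 with limma-voom. Trib3, Shmt2 and Sesn2, which passed between media in 1 line but not in the other, were therefore not shown to differ between the lines.

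Other genes of the pathway were taken from lists. Of 17 tested bZIP and stress genes downstream of ATF4, 8 were higher and 3 lower in naïve ESCs with WT TET2, and 10 higher and 2 lower with mutant TET2 (limma, adjusted p under 0.05). This is 64.7% and 70.6% of the list, where 35.9% and 35.2% of all genes passed. Nupr1, a small stress-induced chromatin protein, rose by 3.17 and 3.49 on the log2 scale, Gpt2, a mitochondrial alanine transaminase, by 2.41 and 2.35, Vldlr, a lipoprotein receptor, by 1.41 and 1.73, and Ddit4, an inhibitor of mTORC1, by 1.26 and 1.83. Hmox1, a haem oxygenase also driven by NRF2, fell in both lines (-2.11 and -1.60), as did Gadd45a, a growth arrest gene also driven by p53 (-1.72 and -1.77). Atf5, a close relative of Atf4, was lower with WT TET2 (-0.78) and did not pass with mutant TET2 (-0.20; limma, adjusted p = 0.516). The median of this list was 0.48 with WT TET2 and 0.75 with mutant TET2. Between the lines none of the 17 passed in either medium (limma and limma-voom; 2 and 2 at an unadjusted p under 0.05 with limma, 2 and 3 with limma-voom). In naïve ESCs 1 of 17 had a higher mean with WT TET2, with a median difference of -0.39, while in primed ESCs 9 of 17 did, with a median of 0.03; over all genes, 50.4% and 51.3% were higher with WT TET2.

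Of 15 tested serine, glycine, proline and folate enzymes, 10 were higher and 2 lower in naïve ESCs with WT TET2, and 9 higher and 0 lower with mutant TET2 (limma; medians 0.72 and 0.77), which is 80.0% and 60.0% of the list against 35.9% and 35.2% of all genes. Psph, which completes serine synthesis, rose by 0.88 and 0.77, and the mitochondrial folate enzymes Mthfd2 and Mthfd1l rose by 1.02 and 0.68 with WT TET2 and by 1.07 and 0.79 with mutant TET2. The largest differences were those of Aldh1l1, a cytosolic folate dehydrogenase (2.96 and 3.01), Pck2, the mitochondrial PEP carboxykinase (1.90 and 2.08), and Pycr1, an enzyme of proline synthesis (1.63 and 1.86). The enzymes of this list that were lower with WT TET2 were Aldh1l2 (-0.57) and Mthfd1 (-0.44), and with mutant TET2 they did not pass (-0.23 and -0.34).

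Amino acid transporters split. Of 10 tested, 4 were higher and 3 lower in naïve ESCs with WT TET2, and 5 higher and 4 lower with mutant TET2 (limma), which is 70.0% and 90.0% of the list against 35.9% and 35.2% of all genes. The neutral amino acid transporters Slc1a4 and Slc1a5 rose by 2.01 and 1.93 with WT TET2 and by 2.11 and 1.86 with mutant TET2, and the glycine transporter Slc6a9 rose by 1.49 and 1.35. Slc38a2, a transporter of small neutral amino acids, fell (-1.13 and -1.37), as did Slc7a3, a transporter of cationic amino acids (-1.06 and -1.29), and Slc38a1 (-0.70 and -0.62). Slc7a11, the cystine transporter, did not pass with WT TET2 (-0.24; limma, adjusted p = 0.287) and was lower with mutant TET2 (-0.48; 0.0347).

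Of 20 cytosolic aminoacyl-tRNA synthetases, which charge tRNAs with amino acids, 5 were higher and 2 lower with WT TET2 and 6 higher and 4 lower with mutant TET2, with medians of 0.24 and 0.26 (limma). The share called, 35.0% and 50.0%, was close to that of all genes with WT TET2 (35.9%) and above it with mutant TET2 (35.2%), with no test of the difference. Cars, Iars and Qars rose by 0.80, 0.68 and 0.66 with WT TET2 and by 0.90, 0.80 and 0.77 with mutant TET2, and Wars and Farsa fell (-0.55 and -0.44 with WT TET2, -0.54 and -0.52 with mutant TET2). Of 18 ER chaperones and genes of the ATF6 and XBP1 arms of the unfolded protein response, 3 were higher and 3 lower with WT TET2 and 2 higher and 3 lower with mutant TET2, a share called of 33.3% and 27.8% against 35.9% and 35.2% of all genes, with no test of the difference. Herpud1, an ER degradation factor, rose by 1.12 and 0.90, whereas Hspa5, the ER chaperone BiP, fell (-1.0002 and -1.57), as did Calr, calreticulin (-0.68 and -0.77).

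The list of genes upstream of ATF4 held 9 eIF2 kinases, phosphatase subunits and eIF2 or eIF2B subunits. In naïve ESCs, 1 was higher and 2 were lower with WT TET2, and 1 higher and 3 lower with mutant TET2 (limma). This is 33.3% and 44.4% of the list against 35.9% and 35.2% of all genes, with no test of the difference, and limma-voom called 2 in each line. Eif2ak1, the haem-regulated kinase HRI, fell (-0.70 and -0.67), as did Eif2b1 (-0.39 and -0.53). Ppp1r15a was lower by -0.51 with mutant TET2 and did not pass with WT TET2 (-0.50, limma, adjusted p = 0.0466 and 0.0515, respectively). Eif2b5 was higher by 0.42 with WT TET2 and did not pass with mutant TET2 (0.23, limma, adjusted p = 0.0281 and 0.210, respectively). Eif2ak4, the amino acid sensing kinase GCN2, was higher by 0.45 with mutant TET2 and did not pass with WT TET2 (0.40, limma, adjusted p = 0.0487 and 0.0726, respectively). Of 8 tested sestrins and mTORC1 regulators none passed with WT TET2 (limma and limma-voom; 1 at an unadjusted p under 0.05; Flcn had the smallest adjusted p, 0.0773) and Flcn was lower with mutant TET2 (-0.40; limma, adjusted p = 0.0493), a call that limma-voom did not make. No gene of these 7 lists, 97 in all, passed between the rescue lines in naïve or primed ESCs with limma or limma-voom, and 7 and 10 had an unadjusted p under 0.05 with limma (8 and 11 with limma-voom). These 7 and 10 genes are 7.22% and 10.3% of the lists, against 13.3% and 16.2% of all genes.

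**Figure D4:**
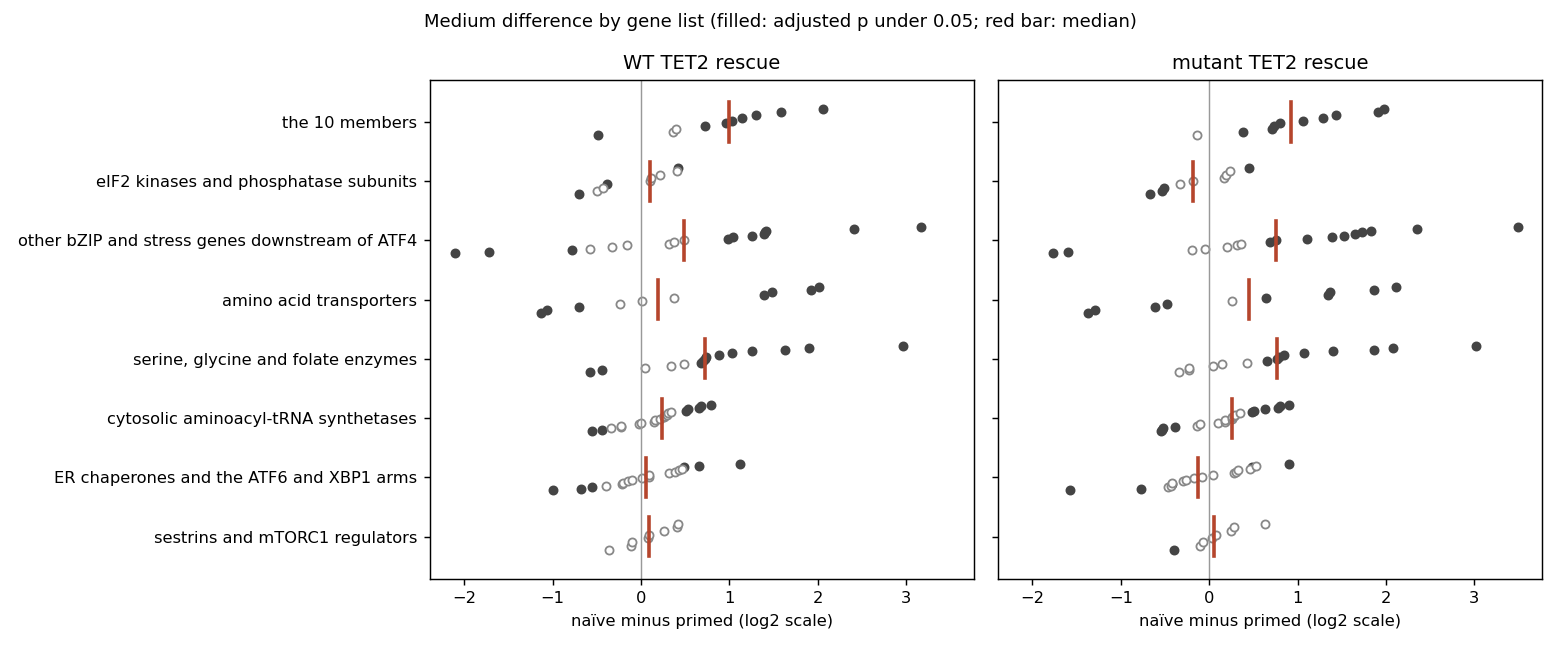
Naïve minus primed difference of each tested gene (x axis, log2 scale) by gene list (y axis), with WT TET2 on the left and mutant TET2 on the right; each point is a gene, filled where the adjusted p was under 0.05, and the red bar is the median of the list. The members and the serine and folate enzymes lie mostly to the right of 0, although 1 member and 2 of these enzymes were called lower with WT TET2. Transporters, ER chaperones, tRNA synthetases, downstream stress genes and eIF2 genes have called genes on each side in both lines.

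Within the groups, the members also varied between replicates. After subtracting group means and scaling, the mean over the members was highest in naïve mutant replicate 2 (0.69), primed mutant replicate 2 (0.65), naïve WT replicate 1 (0.64) and primed WT replicate 2 (0.52). Over the 12 libraries, Trib3, Chac1, Ddit3, Atf3 and Atf4 followed this mean with Pearson's r of 0.89, 0.79, 0.72, 0.72 and 0.60, Phgdh, Psat1, Shmt2 and Sesn2 with 0.45, 0.37, 0.32 and 0.27, and Asns with -0.30. The factors, Trib3 and Chac1 thus followed the mean more closely than the 4 enzymes and Sesn2 did. Each member is part of the mean it is compared with, and the libraries share their group means, so these values are descriptive. Among 8084 other genes, those most like the mean were 8430406I07Rik (r = 0.84), Lsm11 (0.83), Tmem110 and Polb (0.78 each), Rassf3 (0.77), Fam64a (0.75), Hmgxb4 (0.74) and Ephx2 (0.73), a ranking among many genes over 12 libraries.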

How the data were processed

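RNA-seq was examined in 12 libraries, grouped by their labels. The authors trimmed reads with Trim Galore 0.3.3, aligned them to mm9 with TopHat2 2.0.9, a read with several best positions going to a random position, counted reads per gene and transformed the counts with DESeq2; the gene annotation is not given in the sources used here. The deposited values are variance-stabilised and on a log2 scale, and include size factors. Libraries were not directional, so overlapping genes and near-identical copies can share reads. Repeat values were not used here.

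Inverting the transformation gave whole reads (within 0.01) for 100% of values, at 8066662 to 21335933 gene reads per library. Chac1, Atf3 and Ddit3, with 17 to 49 reads in their lowest libraries, are the least precise members. Genes with a mean at least 1 above the lowest value, 3.81, were tested with limma 3.58.1 in R 4.3.3: 4 group means over 12 libraries (8 residual degrees of freedom), a variance trend, and Benjamini-Hochberg adjustment over 14185 genes, called at 0.05. Differences are on the variance-stabilised log2 scale, and folds come from limma-voom on the recovered reads, run as an alternative. Procedures were tested on simulated data. Lengths and positions come from the Gencode vM1 annotation of mm9. Tables and plots were made in Python 3.11.15 (pandas 2.3.3, matplotlib 3.10.9).

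The members and lists were chosen with earlier results of these data known. Named are all members, up to 3 called genes per list, comparison and direction with the largest differences, the 8 genes most like the members' mean profile (of those with a mean at least 4 above the lowest value), Setdb1 and Tet2; other genes were chosen after their values were seen. Replicate numbers come from the labels. Same-numbered naïve libraries of the lines deviated together (mean correlation 0.42, lowest pair 0.30) and were treated as paired in the blocked fit. Alternatives were filters, variance trend, centring, quantile normalization, replicate block, limma-voom, the comparison's libraries alone, and each library left out.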

Additional observations from a re-analysis of the deposited data

How the results depend on the processing

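Of the members' differences between media, those of Asns, Atf3, Ddit3, Chac1, Psat1 and Phgdh passed in both lines under all 20 alternatives, as did Atf4 and Trib3 with mutant TET2. The other calls between media that changed were Atf4, Sesn2 and Shmt2 with WT TET2, with ranges on leaving out a library of 0.55 to 0.85, -0.60 to -0.41 and 0.31 to 0.41, and Shmt2 with mutant TET2 (0.29 to 0.47); Sesn2 was called in 12 of 20 alternatives and Shmt2 with mutant TET2 in 3. No member was called between the rescue lines or in the difference of differences under any alternative. Values near 0 changed sign. For naïve WT minus mutant TET2, Asns was -0.004 with median centring and Shmt2 -0.059 with quantile normalization, and leaving out a library gave -0.069 to 0.111 for Asns, -0.031 to 0.112 for Shmt2 and -0.041 to 0.199 for Sesn2. For primed ESCs it gave -0.170 to 0.061 for Ddit3, -0.149 to 0.012 for Trib3, -0.27 to 0.32 for Chac1 and -0.046 to 0.122 for Shmt2.

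The number of all genes called between the lines, 14 in naïve ESCs, was 9 with no filter, 5 with a mean at least 3 above the lowest value, 36 with the replicate block, 9 with the 6 naïve libraries alone, and 5 (without naïve mutant replicate 1) to 22 (without primed mutant replicate 3) on leaving out a library; it was at most 9 without naïve WT replicate 2 or 3, any single naïve mutant replicate, primed WT replicate 1 or 2, or primed mutant replicate 2. In primed ESCs the 36 became 23 with the stricter filter, 209 with the replicate block, 18 with the primed libraries alone, and 12 (without primed WT replicate 1) to 82 (without primed mutant replicate 3), with at most 18 without any single primed WT replicate or primed mutant replicate 1. For the difference of differences the range was 0 to 1, with 1 gene called without naïve WT replicate 1. Same-numbered libraries deviated together little or not at all in primed ESCs and between media. Mean correlations were 0.0950, 0.116 and -0.0906 for primed lines, WT and mutant, against -0.0467, -0.0595 and 0.042 for libraries of unlike number. The labels do not say what same-numbered libraries share. Between media the replicate block lost the calls of Sesn2 with WT TET2 and Shmt2 with mutant TET2 (limma, adjusted p = 0.0761 and 0.101). No other call among the members was lost with it. The cause of these changes was not tested. Atf3 and Chac1 rest on as few as 17 and 22 reads in a primed library, which limits their precision.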

Other observations

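The gamma subunit of eIF2, the factor whose phosphorylation controls ATF4 translation, is encoded in the mouse by Eif2s3x on the X chromosome and Eif2s3y on the Y chromosome. These genes were chosen after their values were seen. Eif2s3y was higher in naïve than in primed ESCs by 0.96 ± 0.21 (SE) on the log2 scale with WT TET2 and by 0.83 ± 0.21 with mutant TET2 (limma, adjusted p = 0.00192 and 0.00546). Eif2s3x differed by 0.27 ± 0.17 and -0.14 ± 0.17 and did not pass (limma, adjusted p = 0.231 and 0.574). Whether Eif2s3x and Eif2s3y differed from each other was not tested, and near-identical stretches of their transcripts can share reads. Ddx3y, also on the Y chromosome, differed between media by 0.29 ± 0.24 and 0.49 ± 0.24 and did not pass (limma, adjusted p = 0.374 and 0.1285). The WT minus mutant TET2 difference of Eif2s3y was 0.68 ± 0.21 in naïve and 0.55 ± 0.21 in primed ESCs. It did not pass in either medium (limma, adjusted p = 0.262 and 0.232).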
